A study of Mus musculus with 26 samples.

Results

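*Fabp6*, which encodes the ileal bile acid-binding protein, was described together with 8 genes of bile acid handling (*Slc10a2*, *Slc51a*, *Slc51b*, *Abcc3*, *Nr1h4*, *Gpbar1*, *Nr0b2* and *Fgf15*) in mouse colon, 9 genes of the 35975 with summed counts. *Fabp6* was chosen by its difference between the diets at day 22 in these same samples, and the other 8 genes by their known roles beside it. The values of all 9 genes in that one comparison are therefore given as a description. The choice of the gene fixed its call there, and no count of calls or of separate groups at day 22 is read as a result. The study asked how activation of the nuclear receptor LXR bears on repair and tumour growth in the damaged gut, and the 26 bulk RNA-seq samples came from its azoxymethane (AOM) and dextran sodium sulfate (DSS) experiment. The first agent mutates DNA and starts tumours, and the second, given with the water, injures the epithelial lining so that colitis follows. The mice were wild-type C57BL/6J males from Taconic, about 10 weeks old at the start, fed a standard diet (STD) or the same regimen with the LXR agonist GW3965 in the food. The treated mice received AOM at 10 mg per kg of body weight on the day the diets began, then DSS in cycles of 7 days that began a week later, 3 over the whole course. From each diet 3 samples were taken 22, 43 and 70 days after AOM, so that the day 22 samples followed the first cycle and the day 70 samples all 3. The day 0 groups received neither AOM nor DSS, and each held 4 samples, 2 from mice fed the diet for 22 days and 2 from mice fed it for 43 days. No group carried a deletion or a transgene, so that the diet was not directed at 1 cell type. The sources differ on whether a sample was 1 mouse or a pool of several.

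In the small intestine, bile acids enter enterocytes through the apical transporter encoded by *Slc10a2*, are carried through the cytosol by the *Fabp6* product, and leave across the basolateral membrane through the dimer of the *Slc51a* and *Slc51b* products. The bile acid receptor FXR, encoded by *Nr1h4*, switches on *Fabp6*, *Slc51a*, *Slc51b*, the corepressor gene *Nr0b2* (SHP) and the hormone gene *Fgf15*, which lowers bile acid synthesis in the liver. Uptake by this route is a property of the terminal ileum, and the colon absorbs the remaining bile acids mostly by diffusion. LXR, the receptor that GW3965 activates, senses oxysterols and switches on genes of cholesterol efflux such as *Abca1* and *Abcg1*.

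FXR, paired with RXR, binds inverted repeats of a half-site spaced by 1 base (IR1), and LXR, paired with RXR, binds direct repeats of it spaced by 4 bases (DR4). The 250 bases before the RefSeq start site (GRCm38.p6) were found for 7 of the 9 genes, all but *Fgf15* and *Abcc3*, and were searched on both strands for the half-site AGGTCA without a mismatch and, with up to 2 mismatches, for the IR1 AGGTCANTGACCT and the DR4 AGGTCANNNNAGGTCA. The windows of *Fabp6* and *Slc51b*, the 2 of these genes with the largest fitted difference between the diets at day 22, are shown here, with the IR1 matches in capitals for *Fabp6* and the DR4 match in capitals for *Slc51b*. The *Fabp6* window is chr11:43601563-43601812 and the *Slc51b* window is chr9:65422956-65423023, both read from the minus strand. The second was cut to the 68 bases that also lie before the longer gene model used for counting.
Fabp6: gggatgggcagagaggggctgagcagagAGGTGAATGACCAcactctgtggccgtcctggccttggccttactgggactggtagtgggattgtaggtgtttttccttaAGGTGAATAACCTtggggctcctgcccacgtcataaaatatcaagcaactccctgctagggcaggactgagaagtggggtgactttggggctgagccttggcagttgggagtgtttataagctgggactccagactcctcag
Slc51b: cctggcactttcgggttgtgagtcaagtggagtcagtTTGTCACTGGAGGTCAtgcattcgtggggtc

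The *Fabp6* window held 2 IR1 matches that did not overlap, at -222 to -210 and at -142 to -130 from the start site, each with 2 mismatches. Of the 32851 promoter windows searched, 0.959% held at least 1 such match and 0.0122% held 2 or more. Among the other 6 genes none held an IR1 within 2 mismatches. The *Slc51b* window held a DR4 with 2 mismatches at -213 to -198, which 2.57% of the windows also did, and which overlapped an exact half-site. An exact half-site stood in 14.02% of all windows and in those of *Slc51a*, *Slc51b* and *Nr1h4*. The nearest DR4 of *Fabp6* had 3 mismatches, and 18.5% of the windows held one with as few. The nearest IR1 of *Slc51b* also had 3 mismatches, and 9.63% of the windows held one with as few. These are matches of letters, and binding was not measured in these data.

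The samples held between 18195345 and 41522204 estimated counts, with a median of 20424701. The deepest library, STD day 43 replicate 1, also had an RNA integrity number of 2.6 where the others had at least 6.8. The share of counts on ribosomal protein genes was 10.0% to 18.6% at day 43 and at most 10.7% at the other days. GW3965 day 0 (43 days of diet) replicate 2 carried a standard-diet tag but a GW3965 title, and was placed by its title. The diets were housed in separate cages at days 0, 22 and 43 (1 cage per diet at day 0 and 1 per diet for days 22 and 43 together), so that diet and cage cannot be told apart there, whereas each day 70 sample had a cage label of its own. No cage label was shared between day 0 and the AOM-DSS days, so that treatment and cage cannot be told apart either. The tissue carried the colon marker *Hoxb13* at 60.9 to 748 CPM (counts scaled to the size of the library) in every sample. Of 17 small intestinal enterocyte genes, *Apoa1* and *Fabp1* had 0 to 17 and 0 to 2 counts per sample. *Apoa1* was at 0 in all 3 GW3965 samples of day 22. Other genes of this list were present. At day 22 *Apoa4* had 2 to 18 counts under GW3965 and 2 to 10 under the standard diet. *Fabp2* measured 5.51 to 17.1 CPM under GW3965 and 3.97 to 6.30 CPM under the standard diet at that day. Of the 13 genes of the list that were tested, 5 had higher and 8 lower fitted values under GW3965 at day 22. CPM, which takes no account of transcript length, was used to compare samples within a gene, and TPM, in which counts are also divided by transcript length, to compare genes. By median TPM over the 26 samples the order was *Fabp6* (27.7), *Nr1h4* (23.99), *Slc51b* (22.6), *Abcc3* (18.4), *Slc10a2* (1.80), *Gpbar1* (0.633), *Slc51a* (0.120), *Fgf15* (0.0329) and *Nr0b2* (0). The ranges of the first 4 genes overlapped widely, and *Fabp6* had the broadest, from 5.54 to 273.5 TPM. This order pools the diets and includes the day 22 samples that chose *Fabp6*, whose mean was the highest in each GW3965 group. Under the standard diet its mean was below that of *Slc51b* at day 0 (29.3 against 31.2 TPM) and day 43 (11.4 against 13.7 TPM). There it was also below that of *Nr1h4* at day 22 (10.9 against 30.0 TPM) and day 70 (17.2 against 23.8 TPM). 

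*Fabp6* was higher under GW3965 than under the standard diet at day 0, day 22 and day 43, with no overlap between the diets, and at day 70 only 1 of the 3 GW3965 samples stood clearly above the standard diet. The gene lies on chromosome 11 (43596049 to 43601540, minus strand), and 1 transcript carried all of its counts. Without AOM and DSS, the standard-diet samples measured 4.76, 4.20, 6.04 and 8.22 CPM, and the GW3965 samples 23.2, 11.9, 13.7 and 16.3 CPM, in each case the mice with 22 days of diet before those with 43. The lowest GW3965 sample exceeded the highest standard-diet sample, within each diet duration as well. At day 22 the standard-diet samples fell between 1.43 and 4.46 CPM and the GW3965 samples measured 64.7, 35.1 and 68.2 CPM. That difference, a fitted 22.7-fold (log2 fold change 4.51), is the one that singled out the gene. In the same comparison the summed level of 12 Paneth cell genes was also higher under GW3965 (158 to 1234 CPM, against 67.8 to 155 CPM), and its part in the difference was not tested. *Ang4*, an antimicrobial protein also made outside Paneth cells, made up most of that sum (86.9 to 1119 CPM, against 2.75 to 19.7 CPM), while 8 of the 12 genes had lower fitted values under GW3965.

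**Figure D1:**
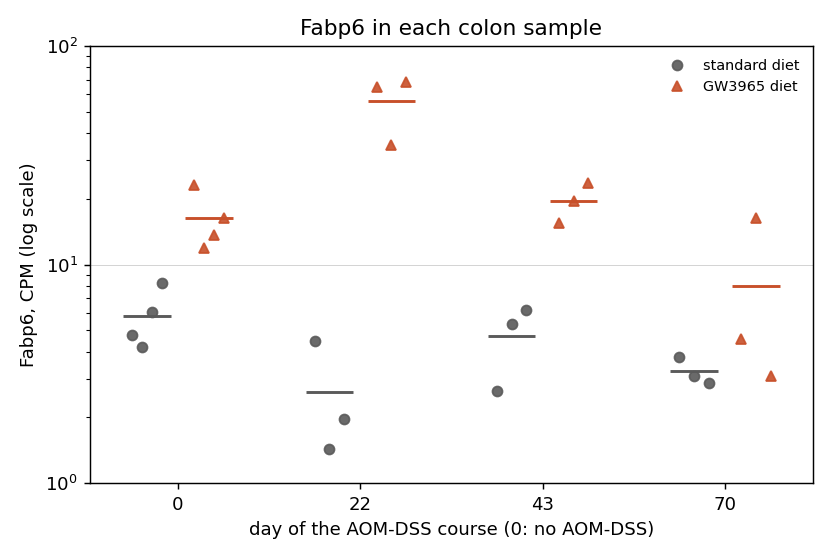
*Fabp6* in each of the 26 samples, in CPM on a log scale, by day and diet (circles, standard diet; triangles, GW3965), with a line at each group mean. The diets do not overlap at days 0, 22 and 43, and at day 70 the GW3965 samples run from 3.11 to 16.4 CPM around the 2.88 to 3.79 CPM of the standard diet.

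At day 43 the standard-diet samples measured 2.64, 5.35 and 6.22 CPM and the GW3965 samples 15.5, 19.6 and 23.6 CPM. The GW3965 samples all lay above the standard diet. The Paneth cell sum at that day was 104 to 505 CPM under GW3965 and 349 to 9514 CPM under the standard diet. Its highest value came from STD day 43 replicate 1, the library of low RNA integrity. The part of Paneth cells in the day 43 values of *Fabp6* was not tested. At day 70 the standard-diet samples measured 3.79, 3.09 and 2.88 CPM and the GW3965 samples 4.56, 16.4 and 3.11 CPM, so that the diets overlapped. In order of the group means, the GW3965 groups came first (day 22, 56.0 ± 18.2; day 43, 19.5 ± 4.03; day 0, 16.3 ± 4.96; day 70, 8.02 ± 7.29 CPM; SD, n = 3, 3, 4 and 3). The standard-diet groups followed (day 0, 5.81 ± 1.79; day 43, 4.74 ± 1.87; day 70, 3.25 ± 0.475; day 22, 2.62 ± 1.62 CPM; SD, n = 4, 3, 3 and 3). Neighbours in this order overlapped, except for GW3965 at day 22 and at day 43. 

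The comparison of the diets at the days not used to choose the gene asks whether *Fabp6* differed beyond day 22. Within each diet, the day 43 samples carried the same cage label as the day 22 samples that chose the gene. In the model over all genes, the day 0 log2 fold change was 1.50 (SE 0.438, 95% confidence interval 0.588 to 2.41). It reached 1.88 (SE 0.553, 0.727 to 3.03) on day 43 and 1.22 (SE 0.525, 0.124 to 2.31) on day 70. None passed the adjustment over 17063 genes (adjusted P = 1, 0.450 and 0.220, edgeR's quasi-likelihood test). For the gene alone, two-sided exact permutation tests on log2 CPM gave P = 0.02857 at day 0, the smallest that 4 against 4 samples allow, P = 0.1 at day 43, the smallest for 3 against 3, and P = 0.2 at day 70 (0.0857, 0.15 and 0.2 after adjustment over these 3 tests). The mean was higher under GW3965 at each of these 3 days. The diet effect at day 43 or day 70 was not called different from that at day 0 (change of log2 fold change 0.38, SE 0.705, adjusted P = 1, and -0.28, SE 0.681, adjusted P = 0.899).

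The day 70 value rested on GW3965 day 70 replicate 2: without it the log2 fold change was 0.20 (adjusted P = 0.837). This sample also differed from the other GW3965 samples of that day in its tissue markers. Its summed level of 10 squamous epithelium genes was 7.81 CPM, against 25560 and 13920 CPM in replicates 1 and 3, and its 16 colonocyte genes summed to 5226 CPM, against 1150 and 2681 CPM. Relative to the colonocyte sum, *Fabp6* at day 70 was 0.396%, 0.314% and 0.116% under GW3965 and 0.0678% to 0.139% under the standard diet. In a fit without replicates 1 and 3, chosen after the data were seen and leaving 1 GW3965 sample at day 70 that is assumed to vary like the other groups, the log2 fold change was 2.29 (adjusted P = 0.0134). The part of the tissue makeup in the result was not tested.

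Of the other tested genes, *Slc51b* had the highest Spearman's rho with *Fabp6* over all 26 samples (0.736). These include the day 22 samples that chose *Fabp6*. At day 0 the mean of *Slc51b* was not higher under GW3965. The gene (chromosome 9, 65412714 to 65422955, minus strand) encodes the smaller subunit of the basolateral exporter. At day 0 it measured 10.8, 6.42, 13.4 and 17.7 CPM under the standard diet and 11.8, 7.88, 6.53 and 7.06 CPM under GW3965, with overlap and the lower mean under GW3965. At day 22 it measured 8.05 to 12.3 CPM under the standard diet and 55.3, 44.5 and 74.1 CPM under GW3965, a fitted 5.29-fold difference in the comparison that chose *Fabp6*. At day 43 it measured 6.09, 10.8 and 17.5 CPM under the standard diet and 36.3, 47.5 and 15.6 CPM under GW3965, where the third GW3965 sample lay within the standard-diet range.

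At day 43 the log2 fold change of *Slc51b* was 1.73 (SE 0.635, 95% confidence interval 0.412 to 3.06, adjusted P = 0.508), and at day 0 it was -0.56 (SE 0.510, adjusted P = 1). The change between those diet effects, 2.29 (SE 0.819, 0.586 to 4.001), did not pass the adjustment either (adjusted P = 0.994). GW3965 day 43 replicate 3 (*Slc51b* at 15.6 CPM) also had the fewest colonocyte transcripts of its group (2553 CPM, against 4639 and 5581). Relative to the colonocyte sum, *Slc51b* was 0.612% to 0.851% under GW3965 and 0.249% to 0.536% under the standard diet at that day. *Fabp6*, in contrast, was highest of the group in replicate 3 (23.6 CPM, against 15.5 and 19.6 CPM). Its share of the colonocyte sum there was 0.923%, against 0.334% and 0.350% in the other GW3965 samples. The part of colonocyte content in the day 43 values of *Slc51b* was not tested. At day 70, GW3965 replicate 2 again stood apart (16.2 CPM, against 1.89 and 2.83 CPM in the other GW3965 samples and 2.11 to 4.84 CPM under the standard diet). The log2 fold change there was 1.11 (adjusted P = 0.345) and -0.47 without that sample.

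The partner subunit, *Slc51a* (chromosome 16, 32474504 to 32487879, minus strand), was at the edge of detection, with 1 to 33 counts per sample. At day 22 the GW3965 samples held 1, 6 and 1 counts, beside 912 to 1636 counts of *Slc51b*. Its GW3965 samples at day 70 held 19, 10 and 33 counts and the standard-diet samples 6, 1 and 2, without overlap, for a log2 fold change of 2.48 (SE 1.03, adjusted P = 0.202). *Slc51a* was thus not high in the day 22 samples in which *Slc51b* was, and at these counts a few reads move its level. The GW3965 samples of day 70 also had more macrophage transcripts (10 genes summed to 303 to 479 CPM, against 143 to 280 CPM), and the part of this in the *Slc51a* values was not tested.

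For the gene of uptake, *Slc10a2* (chromosome 8, 5083219 to 5105351, minus strand), the diets overlapped at all 4 days. Under the standard diet it measured 18.4, 15.4, 5.57 and 12.8 CPM at day 0 and under GW3965 13.2, 30.4, 20.1 and 31.9 CPM. In the comparison that chose *Fabp6*, at day 22, it measured 5.94 to 8.92 CPM under the standard diet and 10.1, 2.49 and 2.72 CPM under GW3965. Its fitted diet differences on the log2 scale were 0.89 (SE 0.616) without injury, -0.75 (SE 0.796) on day 43 and 0.29 (SE 0.754) on day 70, none called. At day 43 the sign rested on STD day 43 replicate 1, the library of low RNA integrity (31.1 CPM, against 5.09 and 3.06 CPM in the other standard-diet samples and 7.46 to 9.21 CPM under GW3965), and without it the value was 0.92 (adjusted P = 0.781). That sample also had the highest Paneth cell sum of its group (9514 CPM, against 349 and 903 CPM). The part of RNA integrity or tissue makeup in its *Slc10a2* value was not tested.

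**Figure D2:**
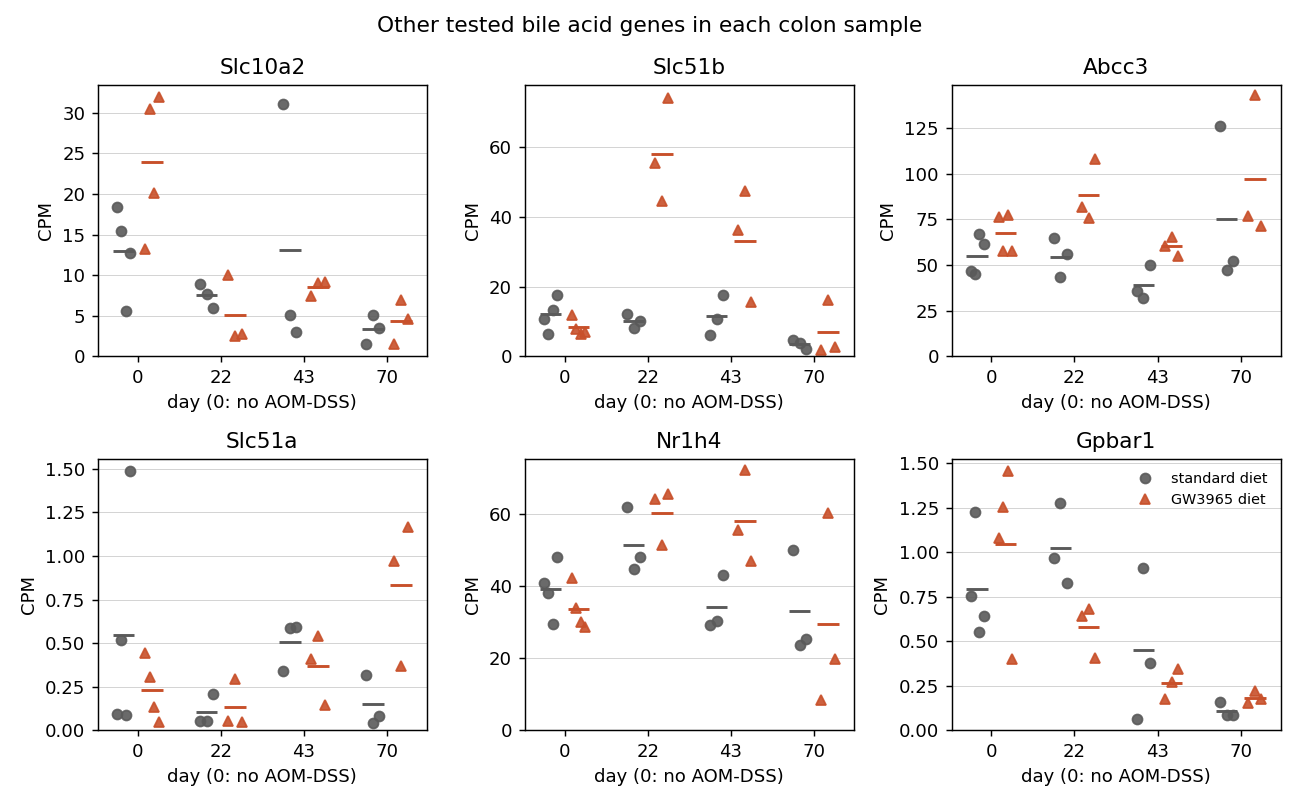
The other 6 tested genes in each sample, in CPM on linear axes that start at 0, by day and diet (circles, standard diet; triangles, GW3965), with a line at each group mean. *Slc51b* is high in the GW3965 samples of day 22 and 2 of those of day 43, *Slc10a2* is highest in GW3965 day 0 and in 1 standard-diet sample of day 43, and *Gpbar1* lies at 0.0846 to 0.221 CPM in all 6 samples of day 70.

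*Nr1h4*, the gene of the bile acid receptor itself (chromosome 10, 89454234 to 89533585, minus strand), was plentiful in every group. At day 43 it measured 29.2, 30.4 and 43.0 CPM under the standard diet and 55.5, 72.2 and 46.9 CPM under GW3965, which did not overlap. The log2 fold change there was 0.79 (SE 0.479, -0.21 to 1.79, adjusted P = 0.652), and at day 0 it was -0.22 (SE 0.382). At day 70 the GW3965 samples spread from 8.39 to 60.5 CPM, wider than the 23.6 to 50.1 CPM of the standard diet, and the highest was again replicate 2. Its counts were split over 3 protein-coding transcripts as 61.1%, 28.3% and 10.6%, a split that was estimated from shared reads.

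*Abcc3* encodes an exporter of conjugated bile acids and other conjugates (chromosome 11, 94343295 to 94392997, minus strand). It measured 32.0, 35.7 and 50.3 CPM under the standard diet and 55.2, 60.8 and 65.2 CPM under GW3965 at day 43, with no overlap, and 43.6 to 64.7 against 75.8 to 108 CPM at day 22. At day 0 the ranges of 45.0 to 67.1 and 57.5 to 77.6 CPM overlapped. Its log2 fold changes were small, at 0.29 (SE 0.278) at day 0, 0.64 (SE 0.358) at day 43 and 0.38 (SE 0.325) at day 70, and none was called.

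*Gpbar1*, the gene of the membrane bile acid receptor TGR5 (chromosome 1, 74278550 to 74279624, plus strand), was low, with 2 to 33 counts per sample. At day 22 the standard-diet samples (0.827 to 1.27 CPM) lay above the GW3965 samples (0.408 to 0.683 CPM), and at the other 3 days the diets overlapped. *Nr0b2* had 4 counts in all, 2 in each of 2 standard-diet samples, and *Fgf15* had 26 counts, at most 3 per sample. Both fell below the filter on low counts and were not tested. A count of 0 allows up to 3 counts, or 0.0932 to 0.203 CPM at these depths. Of the few *Fgf15* counts, 73.3% lay on a retained-intron transcript. In the GW3965 samples of day 22, in which *Fabp6* had 720 to 1505 counts, *Nr0b2* had none and *Fgf15* had 2 to 3.

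Over the 7 tested genes, none was called between the diets at day 0, where 0.0293% of all genes were, and none at day 43 (0.0293% of genes) or day 70 (1.83% of genes). The groups did not overlap for 1 of 7 at day 0 (2.29% of all genes), 3 of 7 at day 43 (10.9%) and 1 of 7 at day 70 (19.1%). These were *Fabp6* at day 0, *Fabp6*, *Nr1h4* and *Abcc3* at day 43, and *Slc51a* at day 70, all higher under GW3965. At day 22, in the comparison that chose *Fabp6*, 1 of 7 was called, *Fabp6* itself (0.135% of genes), and 4 did not overlap (23.6% of genes), *Fabp6*, *Slc51b* and *Abcc3* with higher and *Gpbar1* with lower values under GW3965. These day 22 counts are a description. Days 0, 43 and 70 had median log2 fold changes over the 7 of 0.29, 0.64 and 0.58, beside medians of -0.02, -0.03 and 0.02 over all genes tested. In the tests of whether the diet effect differed from that at day 0, none of the 7 and 0% of genes were called at day 43 or day 70 by edgeR's test, and 746 and 2169 genes had an unadjusted P under 0.05. DESeq2 called 14 and 306 genes, and none of the 7.

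**Figure D3:**
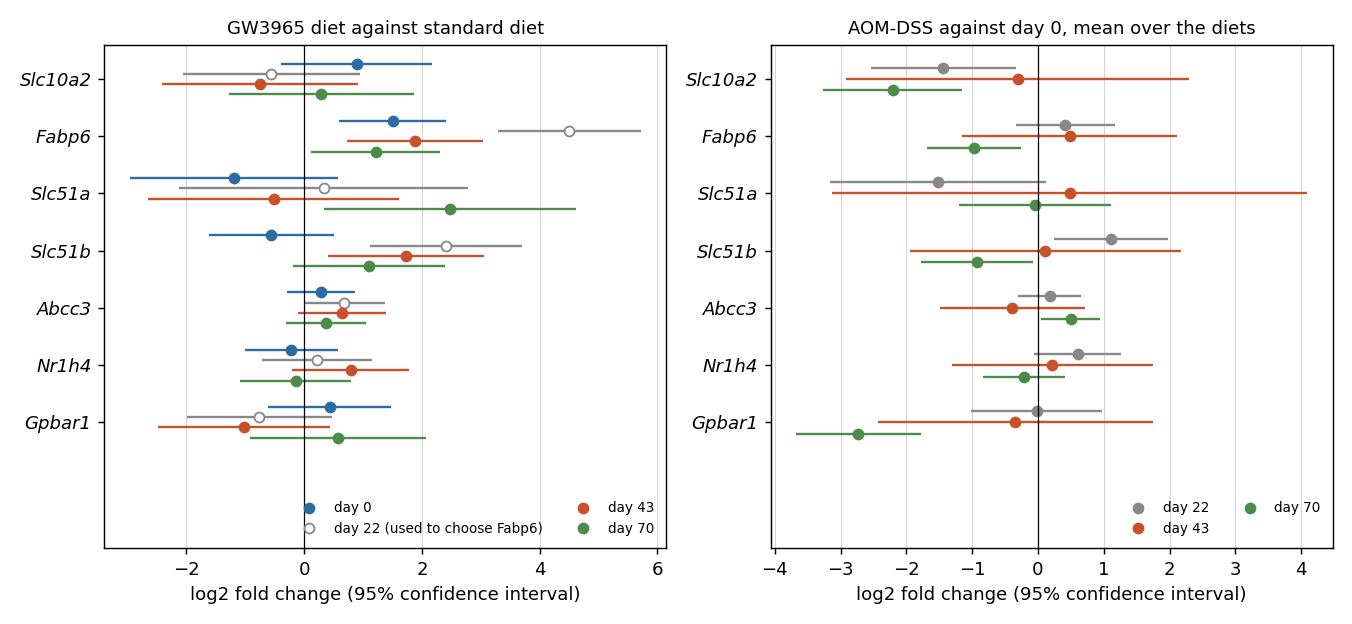
Log2 fold changes with 95% confidence intervals of the 7 tested genes, for GW3965 against the standard diet at each day (left) and for each AOM-DSS day against day 0, as the mean over the diets (right). Open points mark day 22 on the left, the comparison that chose *Fabp6*; the *Fabp6* intervals lie above 0 on the left at every day, and the day 70 intervals of *Slc10a2*, *Fabp6*, *Slc51b* and *Gpbar1* lie below 0 on the right.

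The diet itself was checked on 12 LXR target genes. All 12 were higher under GW3965 at day 0, 43 and 70 (median log2 fold change 1.20, 1.56 and 1.72), and 5, 5 and 6 were called. *Abca1*, the cholesterol efflux pump, was higher by 2.23 (SE 0.235, adjusted P = 4.07e-05) at day 0, 1.79 (SE 0.286, adjusted P = 0.0136) at day 43 and 2.67 (SE 0.284, adjusted P = 0.000135) at day 70 on the log2 scale. *Abcg1*, its partner in efflux, was higher by 2.90, 2.65 and 2.51 at those days. The *Abca1* call at day 43 was lost without GW3965 day 43 replicate 1 or replicate 2 (adjusted P up to 0.673). The *Abcg1* calls held without any 1 sample, as did those of *Abca1* at days 0 and 70.

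AOM and DSS were compared with day 0 as the mean over both diets. The day 0 samples came from other cages. Their mice had been fed the diet for 22 or 43 days, against 70 days for the day 70 samples. Neither can be told apart from the treatment. At day 70 *Slc10a2*, *Fabp6* and *Gpbar1* were lower than at day 0, 3 of the 7 tested genes, where 43.3% of all genes were called and 18.5% were called lower. *Slc10a2* fell by 2.21 on the log2 scale (SE 0.508, adjusted P = 0.00165), from 5.57 to 31.9 CPM at day 0 to 1.58 to 6.93 CPM at day 70, where only the lowest day 0 sample fell within the day 70 range. *Gpbar1* fell by 2.73 (SE 0.454, adjusted P = 9.40e-05), from 0.398 to 1.46 CPM to 0.0846 to 0.221 CPM, without overlap. Both calls held when any 1 of the 26 samples was left out. Relative to the colonocyte sum, of which 11 of the 16 genes were called lower at day 70, the ranges overlapped for both genes. *Slc10a2* was 0.112% to 0.559% of that sum at day 0 and 0.0282% to 0.231% at day 70, and *Gpbar1*, with 2 to 6 counts per sample at day 70, was 0.00697% to 0.0303% and then 0.00282% to 0.0134%. In bulk tissue, fewer cells of a type and less RNA per cell cannot be told apart.

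*Fabp6* fell by 0.97 at day 70 (SE 0.344, adjusted P = 0.0273), against its mean over both diets at day 0. Relative to the colonocyte sum it measured 0.0599% to 0.286% at day 0 and 0.0678% to 0.396% at day 70, where both ends of the range were higher. The call was lost without any 1 of 6 samples (adjusted P from 0.0522 to 0.0774), which were STD day 0 (43 days of diet) replicate 2, GW3965 day 0 (22 days of diet) replicate 1, STD day 70 replicates 2 and 3, and GW3965 day 70 replicates 1 and 3. With both of the last 2 left out, *Fabp6* was at -0.46 (adjusted P = 0.333). *Slc51b* (-0.93, SE 0.409, adjusted P = 0.0737), *Nr1h4* (-0.21, SE 0.299) and *Slc51a* (-0.04, SE 0.555) were not called, and *Abcc3* was 0.49 higher (SE 0.217, adjusted P = 0.0709). *Slc51b* was called lower without the ribosomal term (adjusted P = 0.0478) and by DESeq2 (adjusted P = 0.0345), and *Abcc3* was called higher without STD day 70 replicate 2 or 3 or GW3965 day 70 replicate 3 (adjusted P = 0.0303, 0.0389 and 0.0497). Without GW3965 day 70 replicate 2, *Slc51b* fell by 1.73 (adjusted P = 0.000236) and *Nr1h4* fell by 0.75 (adjusted P = 0.0102), which raised the count from 3 to 5 of 7.

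At day 22 none of the 7 was called, where 19.9% of genes were called and 6.59% called lower. *Slc10a2* came nearest (-1.44, SE 0.527, adjusted P = 0.0598), and it was called without the ribosomal term (adjusted P = 0.0201) and by DESeq2 (adjusted P = 0.0182). *Slc51b* was 1.11 higher (SE 0.419, adjusted P = 0.0678), a mean of a standard diet at its day 0 level and a GW3965 diet far above it, and it too was called in those 2 fits (adjusted P = 0.0148 and 0.0443). *Slc10a2* was also called without any 1 of 6 samples (STD day 43 replicates 1 and 3, STD day 0 (43 days of diet) replicate 1, GW3965 day 22 replicate 1, GW3965 day 70 replicates 1 and 2; adjusted P from 0.0161 to 0.0469), and *Slc51b* without GW3965 day 70 replicate 1 or 2 (adjusted P = 0.0397 and 0.0141). At day 43 none of the 7 was called, where 0.598% of genes were. The share of ribosomal counts was highest at that day, and without its term 11018 genes were called, among them *Gpbar1* (-1.41, adjusted P = 0.00614) and *Slc51b* (0.96, adjusted P = 0.0320).

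The makeup of the tissue changed over the same days. The 16 colonocyte genes summed to 4801 to 9426 CPM at day 0, 3963 to 7187 CPM at day 22, 2411 to 5581 CPM at day 43 and 1150 to 5585 CPM at day 70. Of these 16 genes 11 were called lower and 1 higher at day 70. *Car1*, a carbonic anhydrase of mature colonocytes, measured 417 to 1519 CPM at day 0 and 26.3 to 120 CPM at day 70. The 10 squamous epithelium genes summed to 6.17 to 9.73 CPM at day 0 and 9.81 to 29.9 CPM at day 22, then to 187 to 4228 CPM at day 43 and 7.81 to 25560 CPM at day 70, when all 10 were called higher. The 12 Paneth cell genes summed to 13.2 to 44.9 CPM at day 0 and to 184 to 4560 CPM at day 70, with 11 called higher. The 10 macrophage genes summed to 183 to 406 CPM at day 0 and 483 to 800 CPM at day 22, with 7 called higher. The 17 small intestinal enterocyte genes summed to 299 to 485 CPM under the standard diet and 181 to 300 CPM under GW3965 at day 22. At day 0 they summed to 345 to 768 CPM under the standard diet and 500 to 860 CPM under GW3965. The part of small intestinal cells in the *Fabp6* values was not tested. The hepatocyte gene *Alb* had 3 to 76 counts per sample. The part of these changes in the day comparisons of the bile acid genes was not tested.

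**Figure D4:**
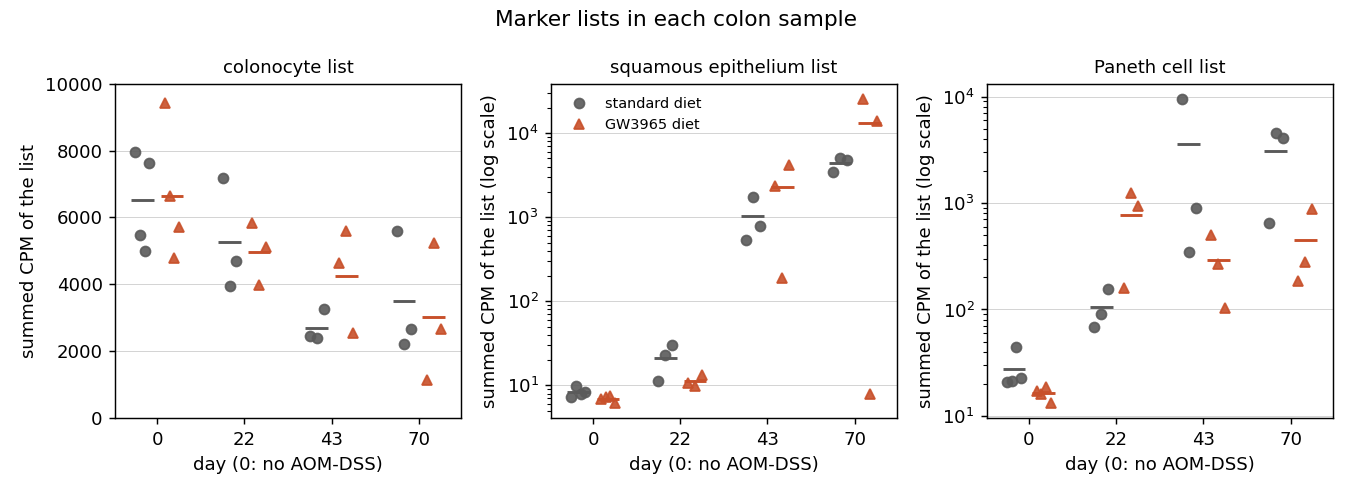
Summed CPM of the colonocyte (linear axis), squamous epithelium and Paneth cell (log axes) marker lists in each sample, by day and diet, with a line at each group mean. The colonocyte sum has lower group means at days 43 and 70 than at day 0, and the squamous sum is at least 187 CPM in all samples of those days except GW3965 day 70 replicate 2 at 7.81 CPM.

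Other genes of bile acid biology were read from lists of transporters (11 tested of 14), receptors and partners (14 of 15), FGF15 signalling (5 of 7), synthesis and conjugation (13 of 17) and clearance (8 of 14). Between the diets none was called at day 0 or day 43. At day 70, 2 transporters were called higher under GW3965. *Slco2b1*, an organic anion transporter, measured 18.9 ± 9.87 CPM under GW3965 and 5.01 ± 1.50 CPM under the standard diet (SD, n = 3; log2 fold change 1.77, SE 0.346, adjusted P = 0.0195). *Slc10a4*, a relative of *Slc10a2* known from neurons, had 12 to 44 counts under GW3965 and 0 to 5 under the standard diet (log2 fold change 3.54, SE 0.899, adjusted P = 0.0480). *Hsd3b7*, an enzyme of bile acid synthesis, was lower under GW3965 (-0.75, SE 0.179, adjusted P = 0.0402). These 3 calls rested on few samples or lay near the threshold. That of *Slco2b1* was lost without GW3965 day 70 replicate 1 or without any 1 of the 3 standard-diet samples of day 70 (adjusted P up to 0.131), that of *Slc10a4* without 21 of the 26 samples taken singly (up to 0.236) and that of *Hsd3b7* without 16 (up to 0.145).

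Against day 0, the genes of these lists called at day 70 were 2 higher and 6 lower among the transporters, 3 higher and 6 lower among the receptors and partners, 3 lower in FGF15 signalling, 3 higher and 1 lower in synthesis, and 2 higher and 3 lower in clearance. Of all genes tested, 24.8% were called higher and 18.5% lower in that comparison. *Vdr*, the vitamin D receptor that also binds lithocholic acid, fell by 2.02 (SE 0.297, adjusted P = 2.75e-05), and *Hnf4a*, a factor of enterocyte identity, fell by 1.06 (SE 0.273, adjusted P = 0.00391). *Klb*, the co-receptor for FGF15, fell by 3.87 (SE 0.509, adjusted P = 8.72e-06) at day 70. At day 22 *Klb* fell by 2.69 (adjusted P = 0.00145). Of the clearance genes, *Sult1a1*, a sulfotransferase, fell by 3.98 (SE 0.317, adjusted P = 6.08e-08), and *Cyp3a13*, a cytochrome P450, fell by 2.19 (SE 0.291, adjusted P = 1.01e-05). *Cyp7b1*, an oxysterol hydroxylase of the alternative synthesis pathway, was 1.28 higher (SE 0.329, adjusted P = 0.00380), and *Abcc4*, an exporter, was 1.57 higher (SE 0.238, adjusted P = 3.68e-05). These 7 calls of day 70 held without any 1 sample, but *Cyp7b1* (0.58, adjusted P = 0.246) was lost in the fit without GW3965 day 70 replicates 1 and 3. The median log2 fold change was -0.61 for the transporters and -0.61 for the receptors and partners, beside 0.07 over all genes.

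In the list of small lipid-binding proteins related to *Fabp6* (9 tested of 12), none was called between the diets at day 0, 43 or 70. *Fabp5*, found in squamous epithelium and macrophages, measured 12.1 ± 2.95 CPM at day 0 and 293 ± 221 CPM at day 70 under the standard diet, and was 5.19 higher at day 70 over both diets (SE 0.545, adjusted P = 9.53e-07), in the same samples in which the squamous genes were high. *Fabp2*, the intestinal-type protein, measured 1.23 to 29.3 CPM over all samples (day 70 against day 0, -0.75, SE 0.385, adjusted P = 0.121).

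Ranked by Spearman's rho with *Fabp6* (log2 CPM over all 26 samples, 17062 genes, a description over samples that share diets, days and cages), the nearest genes were *Gstp1* (rho 0.821, a glutathione transferase), *Btnl1* (0.790, a butyrophilin-like protein of the gut epithelium), *S100g* (0.767, the vitamin D-dependent calcium-binding protein), *Pla2g5* (0.766, a secreted phospholipase) and *Itpka* (0.752, an inositol phosphate kinase). *Slc51b* followed at rank 7 (0.736). *Abcc3* (0.530) and *Nr1h4* (0.501) were at rank 200 and 290, and *Gpbar1* (0.137), *Slc10a2* (0.118) and *Slc51a* (-0.017) showed little likeness. The day 22 samples that chose *Fabp6* were part of this ranking, which therefore favours genes with a similar diet difference at day 22. *Pla2g5*, like *Fabp6*, had its highest mean in GW3965 day 22 (73.0 ± 12.9 CPM, against 28.0 ± 7.36 CPM under the standard diet; SD, n = 3). Unlike that of *Fabp6*, the mean of *Pla2g5* was lower under GW3965 at day 0 (32.8 against 36.6 CPM) and day 70 (16.7 against 20.2 CPM). *S100g* had the higher mean under GW3965 at day 0 (88.0 ± 42.0 against 35.5 ± 12.6 CPM, SD, n = 4).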

How the data were processed

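RNA of 26 mouse colon samples was sequenced as paired-end reads on a NovaSeq, and the study's methods place the biopsies in the distal colon. Per the study's methods, kallisto assigned the reads to cDNA of GRCm38 (version and release not given in the sources used here), and the authors deposited its estimated counts and TPM per transcript. The labels give 7 days of recovery after each DSS cycle where the study's methods give a longer one. The estimated counts were summed over the transcripts of each gene (116728 of 119414 transcripts matched to GENCODE genes of GRCm38 by identifier, with 0.615% to 0.999% of counts on the others) and rounded. The deposited TPM were summed likewise and used to order genes by level.

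Genes were kept by filterByExpr (17063 genes, 7 of the 9 described) and normalized by TMM, and groups were compared with edgeR 4.0.16's quasi-likelihood F test (R 4.3.3, limma 3.58.1) in 1 model of the 8 diet-by-day groups with the centred percentage of counts on 88 ribosomal protein genes, with Benjamini-Hochberg adjustment over all genes and a call at FDR under 0.05. Log2 CPM used a prior count of 2. DESeq2 1.42.0, RLE size factors, no filter, no ribosomal term, a replicate block and leaving out each sample were tried as alternatives. Exact permutation tests used scipy 1.17.1. The fit was tested on simulated data. Promoter windows came from RefSeq. The study's reporting summary describes bulk RNA-seq samples as pools of biological replicates, whereas its legend counts mice per time point and the labels name no pool, so that P values measure the spread between these samples, and limits from counts cover counting error only.

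The genes and lists were chosen with earlier results of these data known. The 9 genes are always named, other genes of a list where they had FDR under 0.05 in a tested comparison or stand first in a marker list, and the 5 genes of highest rho with *Fabp6*. *Fabp1*, *Fabp2*, *Hoxb13* and *Alb* serve as tissue checks. Genes of the lists were named after their values were seen where several qualified.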

Additional observations from a re-analysis of the deposited data

Results flagged for a closer look

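In groups of 4, a sample whose gap to the nearest other sample, as a share of the group's range, exceeded Dixon's 95% critical value was singled out. For normally distributed values chance does this in about 1 of 20 groups. That rate does not hold for the groups below, where the other samples had no counts and any lone count is singled out. The values were those of *Nr0b2* in STD day 0 (43 days of diet) replicate 1 (0.0851 CPM, the only one of its group with any counts) and *Fgf15* in GW3965 day 0 (22 days of diet) replicate 2 (0.0433 CPM, likewise). They stand for 2 counts and 1 count, below the 3 counts that a count of 0 allows.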

How the results depend on the processing

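The diet difference of *Fabp6* kept its direction at days 0, 43 and 70 under all alternatives run, and was called in 1 of them, at day 70 without GW3965 day 70 replicates 1 and 3 (an alternative chosen after the data were seen). In that fit 2 of the 9 genes were called between the diets at day 70 (*Fabp6* and *Slc51b*), 840 genes in all, and the change of the diet effect from day 0 was called for 1 of them (*Slc51b*, 2.94, adjusted P = 0.0208) and for 466 genes, with *Fabp6* reversed (0.78, adjusted P = 0.674, against -0.28). Other reversals of *Fabp6* were its change from day 0 to day 43 without the ribosomal term (-0.018, against 0.48) and, leaving out 1 sample, the change of its diet effect at day 43 (-0.02 to 0.64) and at day 70 (-1.31 to 0.14). Between the diets, DESeq2 called 27, 298, 67 and 1170 genes on days 0, 22, 43 and 70 (edgeR 5, 23, 5 and 312), 2 of the 9 genes at day 22 (1, a count that the choice of *Fabp6* fixed), 471 genes for day 43 against day 0 (102), and 14 and 306 genes for the change of the diet effect (0 and 0). Without the ribosomal term the diets differed in 13, 18 and 524 genes on days 22, 43 and 70, the days in 5386 genes at day 22 (3389) and 11018 at day 43 (102), and the diet effect of day 70 in 1 gene. At day 22 against day 0, 2 of the 9 genes were called without that term and 2 by DESeq2, and at day 43 without it 2 were. No filter on low counts left 151 genes between the diets at day 70. Replicate numbers were shared by 13 pairs of samples across the diets, whose deviations correlated by -0.0661 on average (-0.370 to 0.201, 2 pairs over 0.1), so that samples shared only a number. With a replicate block the diets differed in 4, 0 and 8 genes on days 22, 43 and 70. Leaving out 1 sample gave 5 to 61 genes between the diets at day 22 and 1 to 2 of the 9, 2 to 285 genes at day 43 (285 without STD day 43 replicate 2) and 6 to 1464 at day 70 (6 without STD day 70 replicate 1, 1464 without GW3965 day 70 replicate 3). It gave 0 to 2 of the 9 genes for day 22 against day 0, 0 to 414 genes for day 43, 2 to 5 of the 9 for day 70, and 0 to 4 and 0 to 418 genes for the change of the diet effect at days 43 and 70. The causes of these shifts were not tested. With 3 samples per group, an exact test of 1 gene cannot go below P = 0.1, and counts below about 10 per sample limit *Slc51a*, *Gpbar1*, *Nr0b2* and *Fgf15*.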
